A study of Arabidopsis thaliana with 12 samples.

Results

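Cytochromes P450 are haem enzymes that add oxygen to small molecules, and plants carry a large family of them. In Arabidopsis thaliana they serve the making and breakdown of hormones, sterols, cell-wall phenolics, waxes and defence compounds. Most sit in the membrane of the endoplasmic reticulum and take electrons from a P450 reductase. CYP71B is one of the large subfamilies, with many genes in tandem along a chromosome and few with a known substrate. CYP71B15, known as PAD3, completes the synthesis of the defence compound camalexin, and it was not analysed here.

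The members described here are the genes whose probe set names 1 gene in the array's annotation table with a symbol of the P450 form, CYP followed by a family number, a subfamily letter and a gene number. There were 22 such genes among 13513 single-gene probe sets, of 22810 on the array, each with 1 probe set, so no choice between probe sets was needed. They comprised 18 CYP71B genes and 4 others, CYP51G2, CYP78A9, CYP79A2 and CYP84A4. The 2 probe sets that list several genes, a P450 symbol among them, were left out. RefSeq's table holds 219 coding genes with symbols of this form, 32 of them CYP71B, so the members cover 17 of the 32 coding CYP71B genes and very little of the rest of the family. It marks CYP71B27 and CYP51G2 as transcribed pseudogenes. Of 67 P450 genes listed for hormone, glucosinolate, phenylpropanoid, cuticle, carotenoid, sterol and triterpene pathways, 1 had a named probe set, CYP84A4. The glucosinolate list did not hold the member CYP79A2. The members are mostly CYP71B genes and cover little of these pathways.

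The series measured transcripts of whole seedlings at growth stage 1.02 on 12 Affymetrix ATH1 arrays, and its title concerns membrane fluidity in the perception of low temperature. Each of 6 lines had 1 ambient array and 1 cold array, and all plants, ambient ones too, spent 4 days in a fridge after sowing and grew on MS medium at 20 °C under 16 h days. The control lines were Col-0 and Col-aeq, the latter named for the calcium reporter apoaequorin. The mutant lines were fab1 and fad2, both from EMS mutagenesis, and fad3/7/8, a triple mutant combined by crossing, which carries apoaequorin per its titles. FAB1 extends palmitate, FAD2 desaturates oleate in the endoplasmic reticulum, and FAD3, FAD7 and FAD8 desaturate linoleate. The line 35S-FAD3 is named in the titles for a viral 35S promoter that drives FAD3, while its genotype label gives 35S::apoaequorin alone, and every value for it rests on the titles. How cold the treatment was and how long it lasted is not stated in the sources used here. No line had a second array at either temperature, so the spread of a single condition is not measured.

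The values are MAS5 signals on a linear scale, scaled by the authors to the same trimmed mean. A probe set was tested if its mean signal was at or above the 40th percentile of all probe sets, which is 21.9. The mean was taken on the scale log2(signal + 1.6), and all log2 changes below are on that scale, which understates changes of low signals. limma fitted line and temperature to 13648 probe sets, and a probe set passed at a Benjamini-Hochberg adjusted p under 0.05 over all of them. By its control probe sets the ambient array of Col-aeq was unlike the other 11. There the signal of 25S rRNA reached 2463, while the others gave 99.1 to 849, and its ratio of 3' to 5' actin signal was 23.3, against 6.22 to 10.1. Every comparison with the control lines rests in part on Col-aeq, and values without its arrays are given where calls or counts moved. In whole seedlings, fewer cells of a type and less RNA per cell cannot be told apart.

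Only 11 of the 22 members were bright enough to test, 10 CYP71B genes and CYP78A9. Of the 11 others, 9 stayed under the filter level of 21.9 on all 12 arrays. The tested member nearest the filter was CYP71B23, with a mean of 22.3, and the nearest untested one was CYP71B36, with a mean of 20.7. Signals of CYP71B21, CYP71B31 and CYP79A2 were all at or under 1.9. CYP79A2, whose enzyme converts phenylalanine to its aldoxime for benzyl glucosinolate, was among these lowest ones, at 0.3 to 1.9. Signals of different probe sets depend on their probes, so they are not set against one another as amounts of transcript.

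**Figure D1:**
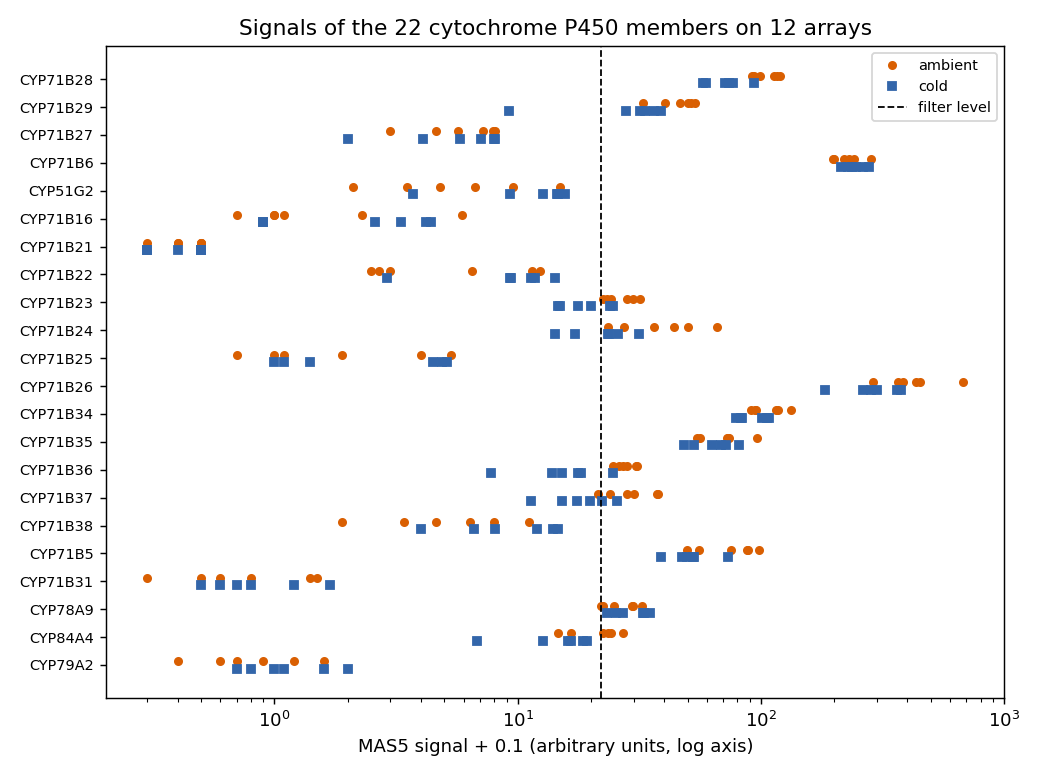
MAS5 signal plus 0.1 of the 22 members on a log axis, with circles for the 6 ambient arrays and squares for the 6 cold arrays; members are in gene order by chromosome, except that CYP71B27 and CYP51G2, which are not coding genes, end their chromosomes. The dashed line is the filter level of 21.9, and 9 members have all 12 points to its left.

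Cold lowered most of the tested CYP71B genes by a moderate amount. Of the 11 tested members 7 fell, all of them CYP71B genes, and 0 rose. Falls ranged from 1.36-fold for CYP71B23 to 1.72-fold for CYP71B24. Without both Col-aeq arrays the 7 still passed, with changes from −0.42 for CYP71B23 (adjusted p = 0.0485, limma) to −0.77 for CYP71B24 (adjusted p = 0.0204). In that fit 22.2% of all probe sets fell, 16.6% rose and 38.8% passed in either direction. With all 12 arrays, the 7 make 63.6% of the tested members, while of all 13648 probe sets 18.3% fell, 15.0% rose and 33.3% passed. The median change was −0.51 for the 11 members and −0.04 for all probe sets. Neighbouring CYP71B genes are related in sequence, and probes may read more than 1 of them, so the members are not separate observations; how far the probe sets cross-react was not tested. The 4 members outside CYP71B cannot be set against it as a group, since CYP78A9 alone was tested.

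CYP71B28 and CYP71B29 lie side by side on chromosome 1 with 0 coding genes between them, and both fell. The ambient signals of CYP71B28 (AT1G13090) were 98.7 in Col-0, 113 in Col-aeq, 117 in 35S-FAD3, 93.5 in fab1, 92.2 in fad2 and 119 in fad3/7/8. In the cold they were 59.5, 74.2, 71.2, 57.5, 76.4 and 93.9 in the same order. Every line fell, and the ranges at the 2 temperatures met only at the fad3/7/8 cold array, which lay above the lowest ambient ones. The change was −0.55 (SE 0.0944, adjusted p = 0.00112, limma), or 1.46-fold.

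For CYP71B29 (AT1G13100), ambient signals were 40.4 in Col-0, 50.1 in Col-aeq, 53.7 in 35S-FAD3, 46.4 in fab1, 32.6 in fad2 and 51.3 in fad3/7/8. The cold signals were 36.4, 27.7, 33.3, 31.8, 9.1 and 38.7. The fad2 cold array was far below the rest, and of the other cold values some lay above and some below the fad2 ambient value. The limma change was −0.70 (SE 0.177, adjusted p = 0.0105). Without the fad2 line it was −0.51, and the gene still passed.

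The other chromosome carrying a series of members is chromosome 3. From CYP71B16 (AT3G26150) to CYP71B37 (AT3G26330) it holds a run of 20 coding genes, of which 16 have CYP71B symbols and 11 are members. Of these 11, 6 were tested and 4 fell in the cold. Untested members lay among the tested ones. CYP71B22, which adjoins the tested CYP71B23, had signals of 2.4 to 14.2, and CYP71B21, which adjoins CYP71B22, had signals of 0.2 to 0.4.

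**Figure D2:**
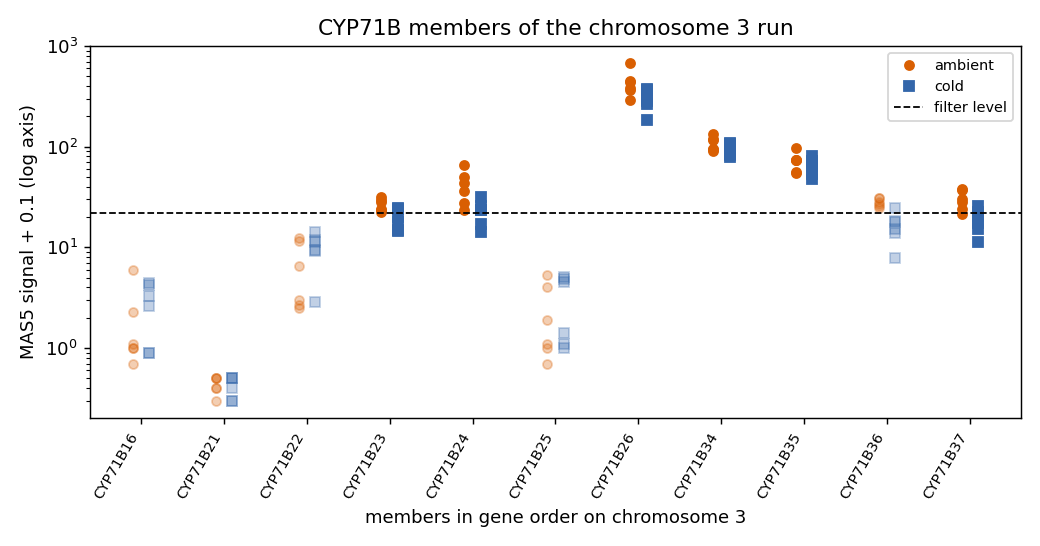
MAS5 signal plus 0.1 on a log axis for the 11 members of the chromosome 3 run in gene order, with circles for ambient and squares for cold arrays; pale points are members not tested, and the dashed line is the filter level of 21.9. CYP71B26 has the points between 184 and 680, and CYP71B21 lies at 0.2 to 0.4 before the addition of 0.1.

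CYP71B26 (AT3G26290) had ambient signals of 367 in Col-0, 680 in Col-aeq, 451 in 35S-FAD3, 383 in fab1, 289 in fad2 and 435 in fad3/7/8. In the cold they were 263, 363, 284, 301, 184 and 377. The signal fell in 6 of 6 lines, most in Col-aeq (−0.90) and least in fad3/7/8 (−0.21). The change was −0.54 (SE 0.0952, adjusted p = 0.00131, limma), and −0.47 without both Col-aeq arrays (adjusted p = 0.000948).

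Of the 11 tested members, CYP71B24 (AT3G26230) showed the widest spread of cold changes between lines. Its ambient signals were 50.0 in Col-0, 43.7 in Col-aeq, 66.2 in 35S-FAD3, 36.3 in fab1, 27.2 in fad2 and 23.4 in fad3/7/8, and its cold signals were 14.1, 23.6, 31.4, 17.1, 23.4 and 25.8. The fad2 and fad3/7/8 lines thus began low and moved little (−0.20 and 0.13), while Col-0 changed by −1.72. Over the 6 lines the limma change was −0.78 (SE 0.211, adjusted p = 0.015). It did not pass without the 35S-FAD3 line (adjusted p = 0.051) or without the fab1 ambient array (0.0503).

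CYP71B37 (AT3G26330), at the far end of the run, fell by 0.65 on the log2 scale (SE 0.168, adjusted p = 0.0126, limma). Its signals were 21.3 to 37.5 in the ambient arrays (median 28.9) and 11.3 to 25.4 in the cold ones (median 18.6), and all 6 lines went down. The groups overlapped, and 5 of the 12 signals lay under the filter level, so the size is uncertain. CYP71B23 (AT3G26210) fell by 0.45 (SE 0.139, adjusted p = 0.0294), with signals of 22.3 to 31.7 (median 26.0) and 14.5 to 24.5 (median 18.8). In fad2 it hardly moved, from 24.0 to 23.9. Its call was the least firm, for it did not pass without the Col-0 line (adjusted p = 0.0893), the fab1 line (0.0868), the 35S-FAD3 line (0.0763) or the Col-aeq ambient array (0.0507), nor with the filter lifted (0.075).

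Next to CYP71B37 lies CYP71B36 (AT3G26320), which was just under the filter. Its signals were 24.6 to 30.9 in the ambient arrays and 7.7 to 24.5 in the cold ones, so the 6 cold values lay below the 6 ambient ones. With the filter lifted its change was −0.79 (SE 0.211, adjusted p = 0.0263, limma). The adjoining members CYP71B34 (AT3G26300) and CYP71B35 (AT3G26310) did not pass. CYP71B34 had signals of 90.7 to 133 (median 106) in the ambient arrays and 78.7 to 108 (median 92.2) in the cold ones, a difference of −0.20 (SE 0.11, adjusted p = 0.185). CYP71B35 had 54.3 to 96.5 (median 73.2) and 48.1 to 81.4 (median 65.5), a difference of −0.14 (SE 0.143, adjusted p = 0.488). Genes side by side in this run thus gave calls for some and none for others, and differences between neighbours were not tested.

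Elsewhere on chromosome 3, CYP71B5 (AT3G53280) had ambient signals of 75.6 in Col-0, 49.7 in Col-aeq, 88.6 in 35S-FAD3, 87.2 in fab1, 55.8 in fad2 and 98.5 in fad3/7/8. In the cold they were 47.1, 52.9, 52.5, 49.6, 38.6 and 73.2. It went down in 5 of 6 lines, with Col-aeq, whose ambient array stood apart, the exception. The change was −0.51 (SE 0.121, adjusted p = 0.00811, limma), and −0.63 (SE 0.0941, adjusted p = 0.00033) without both Col-aeq arrays. Its near neighbour CYP71B31, whose enzyme oxidises linalool, stayed at 0.2 to 1.6 on all arrays.

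CYP71B6 and CYP78A9 stood on the other side of 0. CYP71B6 (AT2G24180), on chromosome 2, encodes an enzyme that turns indole-3-acetonitrile into indole-3-carboxylic acid. Its signals were 198 to 284 (median 225) in the ambient arrays and 213 to 278 (median 242) in the cold ones, a difference of 0.10 (SE 0.0859, adjusted p = 0.399, limma). The signal rose in 5 lines and fell in Col-aeq (−0.26), whose ambient array stood apart by its control probe sets. CYP78A9 (AT3G61880), of a family that promotes organ and seed growth, had signals of 21.9 to 32.4 (median 27.2) and 23.3 to 34.8 (median 29.9), a difference of 0.12 (SE 0.165, adjusted p = 0.599). It went up in 3 lines and down in 3.

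**Figure D3:**
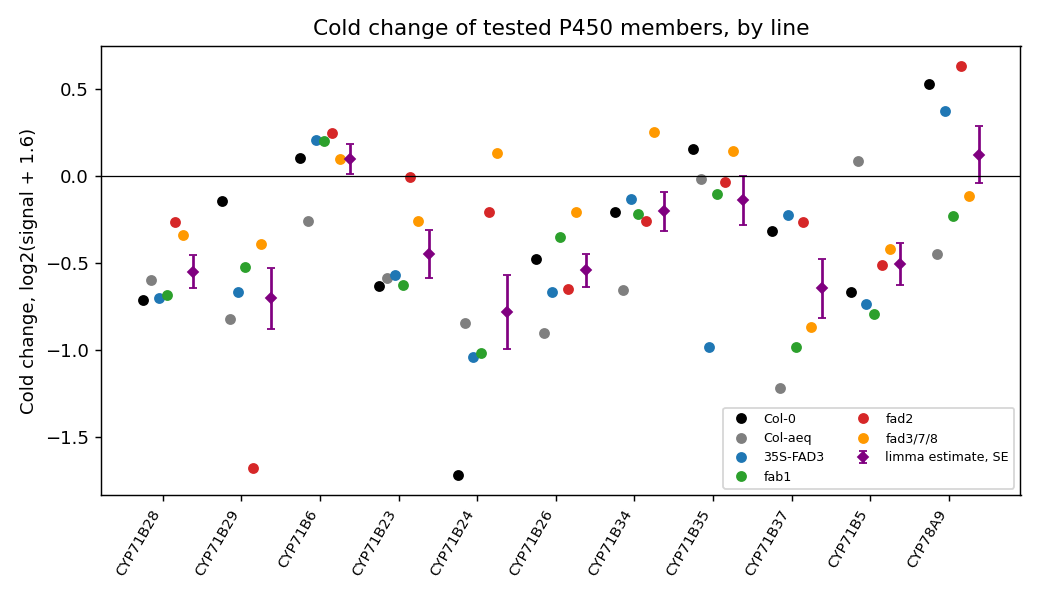
Cold minus ambient difference on the log2(signal + 1.6) scale for the 11 tested members in gene order by chromosome, 1 circle per line, with limma's estimate and SE as a purple diamond and bar. The 7 members that fell have estimates from −0.45 to −0.78, and among these 11 CYP71B24 and CYP71B29 have the widest spread between lines.

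Of the 66 differences of a tested member in a line, 53 were below 0. By line, the number of the 11 members that were lower in the cold was 8 in Col-0, 10 in Col-aeq, 9 in 35S-FAD3, 10 in fab1, 9 in fad2 and 7 in fad3/7/8. The median difference ran from −0.66 in 35S-FAD3 to −0.21 in fad3/7/8. The 53 of 66 and these values by line were not computed over all probe sets, so they have no background here. Members within a line are not separate observations. Lower values in 6 of 6 lines were seen for 5 of the 11 members (45.5%), against 18.4% of all tested probe sets, and higher values in 6 of 6 lines for 0 members, against 14.7%. Of the tested members 0 had their 6 cold signals all below their 6 ambient ones or all above, patterns held by 6.57% and 5.60% of tested probe sets. Among markers of green tissue, 1 of the 2 tested fell, as did 18.3% of all tested probe sets. Their summed signal, from the 2 of 8 listed genes with a probe set, was 6687 to 8060 in the ambient arrays and 5862 to 6874 in the cold ones, and neither marker was at 0. LHCB4.1, a photosystem II antenna protein, fell by 0.31 (SE 0.0606, adjusted p = 0.00269), while Rubisco activase (RCA) differed by −0.10, with an SE of 0.052 and an adjusted p of 0.171. The summed signal of root markers, from 9 of 12 listed genes, was 2855 to 3446 in the ambient arrays and 2669 to 3177 in the cold ones, and of the 8 tested, 2 fell and 0 rose. The part of these tissues in the fall of the CYP71B genes was not tested.

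Whether the cold change differed between the 3 mutant lines and the 2 control lines was asked on the within-line differences, with 35S-FAD3 as a class of its own. In limma 0 of 11 members passed, as did 0.00% of the 13648 probe sets; at an unadjusted p under 0.05, 0 members and 1027 probe sets did. CYP71B24 had the lowest p among members, with a cold change 0.92 higher in the mutant lines (SE 0.41, adjusted p = 0.661). By line it was −1.72 in Col-0 and −0.85 in Col-aeq, against −1.02 in fab1, −0.20 in fad2 and 0.13 in fad3/7/8, so fab1 lay among the controls. Next were CYP71B34 at 0.36 (SE 0.246, adjusted p = 0.721) and CYP71B26 at 0.29 (SE 0.211, adjusted p = 0.735). The 0 calls over all probe sets held without the Col-aeq line but not without the Col-0 line. The latter fit has Col-aeq as its only control line. The cold change of Col-aeq rests in part on the ambient array that stood apart by its control probe sets. CYP71B24 stood at 0.48 without the Col-0 line and at 1.35 without the Col-aeq line, each with a single control line.

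The fad2 line was lower than the control lines for CYP71B29 and CYP71B26. These 2 of 11 members are 18.2%, against 4.28% of all tested probe sets lower in fad2 and 9.44% called in either direction. Higher calls were made for 0 members and for 5.17% of probe sets. The median difference was −0.21 for the members and 0.02 for all probe sets. When a single array was left out, the share of all probe sets called for fad2 ran from 0.388% without the fad2 ambient array to 24.8% without the Col-aeq cold array. The latter fit leaves Col-aeq only its ambient array, which stood apart by its control probe sets. Among all calls for fad2, 54.7% were higher. With each array centred on its median, 33.8% were.

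CYP71B29 was lower in fad2 by −1.04 (SE 0.265, adjusted p = 0.0349, limma), or 2.06-fold. Its fad2 signals were 32.6 and 9.1, lower than in any other line, against 40.4 and 36.4 in Col-0 and 50.1 and 27.7 in Col-aeq. The size rests on the cold array, since without it the difference was −0.46 (adjusted p = 0.345). The gene did not pass without the Col-0 cold array either (−0.88, adjusted p = 0.106), nor with the filter lifted (0.0753), with Col-0 alone as the control (0.0735) or with Col-aeq alone (0.0652). It did pass without both Col-aeq arrays (−1.06, adjusted p = 0.0432). CYP71B28 beside it gave no difference in fad2, at 0.00 (SE 0.142, adjusted p = 0.997), with the lowest ambient signal of the lines, 92.2, and the second highest in the cold, 76.4.

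CYP71B26 was lower in fad2 by −0.77 (SE 0.143, adjusted p = 0.0109, limma), or 1.70-fold. Its fad2 signals of 289 and 184 were the lowest of the 6 lines at both temperatures, as were those of 11.0% of tested probe sets. The highest signals at both temperatures were in fad2 for 0 members and 14.0% of probe sets. The 680 of the Col-aeq ambient array raised the control mean. With any 1 array left out, that one included, the difference stayed between −0.87 and −0.66. Without both Col-aeq arrays the difference was −0.43 (adjusted p = 0.0549), and with Col-0 alone as the control in the full fit the adjusted p was 0.177. It did not pass without either fad2 array (adjusted p = 0.112 without the ambient and 0.116 without the cold one).

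In fad2 the 7 other tested CYP71B genes ran from −0.31 for CYP71B37 (SE 0.252, adjusted p = 0.468) to 0.14 for CYP71B23 (SE 0.209, adjusted p = 0.731), and CYP78A9 stood at 0.01 (SE 0.247, adjusted p = 0.981). Root markers were higher in fad2 in 3 of 8 tested genes and lower in 0, while 5.17% of all tested probe sets were higher. Among the 3 was AT4G26010, a peroxidase gene, by 2.06 (SE 0.305, adjusted p = 0.00532, limma). Of the 8 tested, only PYK10 was below 0, at −0.14 (SE 0.0966, adjusted p = 0.401). The summed signal of root markers was 3177 to 3405 in fad2 and 2900 to 3157 in the control lines, and none was at 0. Over all lines other than fad2 it was 2669 to 3446, and the fad3/7/8 ambient array, at 3446, lay above both fad2 arrays. The part of the root markers in the lower signals of CYP71B29 and CYP71B26 was not tested.

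**Figure D4:**
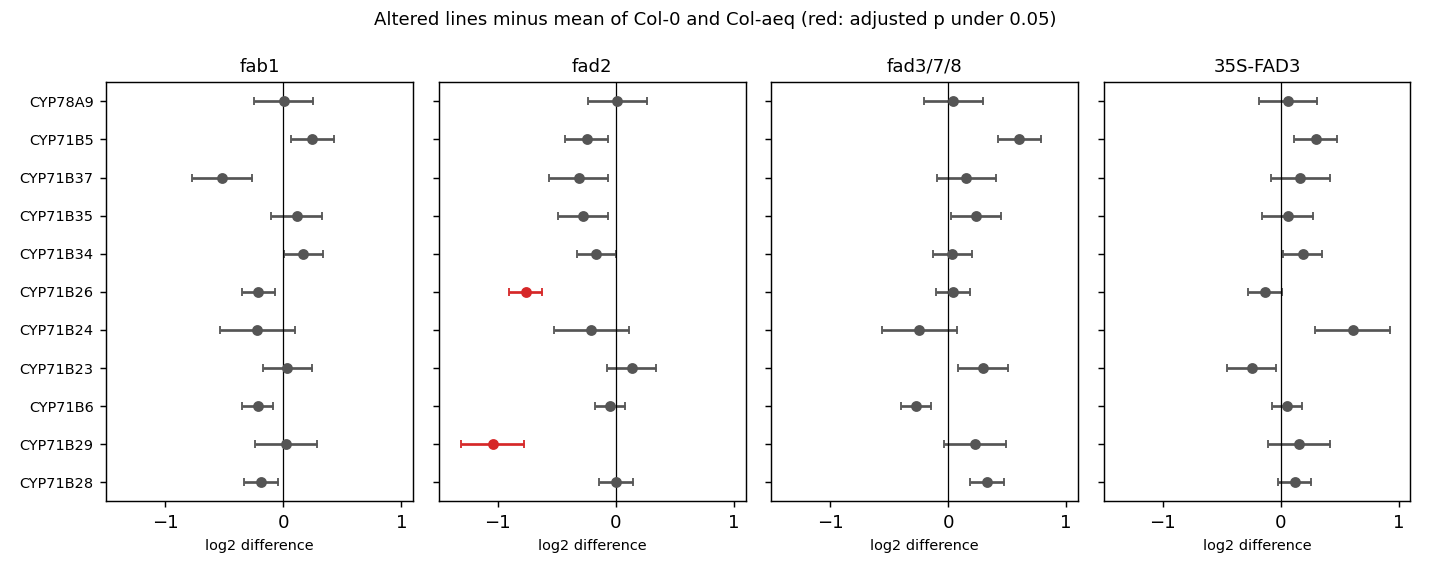
Difference of each altered line from the control lines' mean (Col-0 with Col-aeq) on the log2(signal + 1.6) scale, with limma's SE as bars, for the 11 tested members; red marks an adjusted p under 0.05. The 2 red points are CYP71B26 (−0.77) and CYP71B29 (−1.04) in fad2.

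In the remaining 3 lines 0 of 11 members passed limma's test against the control lines. The share of all probe sets called was 0.0147% for fab1, 0.0293% for fad3/7/8 and 0.205% for 35S-FAD3. A fit without the Col-aeq cold array leaves that line only its ambient array, which stood apart by its control probe sets. The shares rose far more in that fit than without the Col-aeq ambient array. Without the Col-aeq cold array they were 5.46%, 13.3% and 12.3%, and without both Col-aeq arrays 0.103%, 5.06% and 2.30%. Higher and lower calls made 0.00733% each for fab1, 0.0220% and 0.00733% for fad3/7/8, and 0.0879% and 0.117% for 35S-FAD3. At an unadjusted p under 0.05 there were 2 of 11 members in fad3/7/8, where 1702 of the 13648 probe sets met it. There were 0 in fab1 and in 35S-FAD3, where 847 and 1702 probe sets did. CYP71B5 was 0.60 higher in fad3/7/8 (SE 0.182, adjusted p = 0.271), with signals of 98.5 and 73.2, the highest of the 6 lines at both temperatures. CYP71B28 was 0.33 higher (SE 0.142, adjusted p = 0.386), also with the highest signals at both temperatures, 119 and 93.9. Such an order was held by 2 of 11 members and by 4.02% of tested probe sets. CYP71B6 was lower by −0.28 (SE 0.129, unadjusted p = 0.0558, adjusted p = 0.419), with 198 and 213 the lowest of the lines, as for 3.67% of probe sets. Without the Col-aeq cold array CYP71B5 passed (0.78, adjusted p = 0.00723), and so did CYP71B6 (−0.38, adjusted p = 0.0334), in a fit that called 7.91% of all probe sets higher and 5.36% lower. Without both Col-aeq arrays 0 members passed, with CYP71B5 at 0.50 (SE 0.149, adjusted p = 0.0788), CYP71B28 at 0.46 (SE 0.154, adjusted p = 0.113) and CYP71B6 at −0.21 (SE 0.109, adjusted p = 0.29). For fab1 and 35S-FAD3, too, 0 members passed without them.

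In fab1 the member with the lowest p was CYP71B37, at −0.52 (SE 0.252, adjusted p = 0.801), with signals of 23.9 and 11.3. CYP71B6 stood at −0.22 (SE 0.129, adjusted p = 0.801) and CYP71B26 at −0.21 (SE 0.143, adjusted p = 0.805), the latter at 0.13 when Col-aeq was left out. In fab1, 0 members were the lowest or the highest of the lines at both temperatures, against 2.70% and 1.93% of probe sets. In 35S-FAD3, CYP71B24 stood at 0.61 (SE 0.317, adjusted p = 0.448), with signals of 66.2 and 31.4, the highest of the lines at both temperatures, as for 3.38% of probe sets. CYP71B5 stood at 0.29 (SE 0.182, adjusted p = 0.51) and CYP71B23 at −0.25 (SE 0.209, adjusted p = 0.635), its signals of 22.3 and 14.5 the lowest of the lines, as for 2.81% of probe sets.

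Members under the filter gave values that can be described but not sized. CYP84A4 (AT5G04330), an enzyme of arabidopyrone synthesis, had signals of 14.6 to 27.1 (median 22.9) in the ambient arrays and 6.7 to 19.2 (median 16.2) in the cold ones, and went down in 5 of 6 lines. With the filter lifted it stood at −0.51 (SE 0.255, adjusted p = 0.213, limma). CYP51G2 (AT2G17330), a relative of the sterol demethylase CYP51G1, went up in 5 lines, from 2.0 to 14.9 at ambient temperature to 3.6 to 15.5 in the cold, and down in Col-0. CYP71B38 and CYP71B22 went up in 5 and 4 lines at signals of 1.8 to 14.5 and 2.4 to 14.2. With the filter lifted CYP51G2 stood at 0.73 (adjusted p = 0.269), CYP71B38 at 0.65 (0.301) and CYP71B22 at 0.62 (0.216). CYP71B16, CYP71B25 and CYP71B27 stayed at or under 8.0.

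Genes that work beside P450s in the same pathways were few on the named part of the array, 5 of the 62 listed, and none of the 8 listed P450 reductases, cytochromes b5 and b5 reductases. In the phenylpropanoid list, 2 of 3 tested genes rose in the cold and 0 fell. They were DFR, which makes anthocyanin precursors (1.38, SE 0.153, adjusted p = 5.29e-05), and HCT, which feeds the P450 step of lignin synthesis at the shikimate ester (0.23, SE 0.0714, adjusted p = 0.0282). The scopoletin gene F6H1 (AT3G13610) stood at 0.24 (SE 0.154, adjusted p = 0.265) in the cold, while it and DFR were higher in fad2, by 2.48 (SE 0.231) and 1.13 (SE 0.23), with adjusted p-values of 0.000529 and 0.0156. HCT stood at 0.01 (SE 0.107) there, and 5.17% of all tested probe sets were higher in fad2. In the glucosinolate list, 0 of 2 tested genes passed in either comparison, where 33.3% (cold) and 9.44% (fad2) of all tested probe sets did. BCAT4, of methionine chain elongation, had an adjusted p of 0.602 for the cold (−0.12, SE 0.154) and of 0.983 for fad2 (−0.01, SE 0.231). UGT74B1, a glucosyltransferase, had 0.355 for the cold (−0.16, SE 0.121) and 0.649 for fad2 (0.15, SE 0.182).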

How the data were processed

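Biotin-labelled RNA of whole seedlings was hybridised to ATH1 arrays, per the labels. The authors deposited an intensity for each of 22810 probe sets on 12 arrays, linear and never below 0. MAS5 and GCOS appear in the submitters' processing notes without versions or settings. The mean after trimming 2% at each end was 100.01 on every array, and no further scaling was applied. No read depth exists for arrays, and their number limits the precision.

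Genes were named from GEO's platform table, with gene order and biotypes from RefSeq's TAIR10.1 table. The 64 control probe sets were left out. A pair of linear models were fitted with limma (version 3.58.1, R version 4.3.3): line plus temperature with an intensity trend (5 residual degrees of freedom), and the 6 within-line differences by class of line (3). Tables were made with pandas (2.3.3) and NumPy (2.4.6) under Python (3.11.15), and plots with matplotlib (3.10.9). Scripts were tested on simulated data.

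The text names members that passed, the 3 with the lowest p where none did, each CYP71B gene, and the tested genes of the lists. The members and lists were chosen with earlier results of these data known. The filter was first set on the mean of the linear signals, a level of 22.9. It was moved to the mean on the log2 scale, the way the series had been processed before, after the members' results had been seen, and the move added CYP71B23 to the tested and called members. Replicates of a condition do not exist. In the fit of line and temperature, p-values rest on how the cold change varied between lines, together with array noise. Differences in level between lines, Col-0 and Col-aeq included, are not part of that spread. In the class fit, p-values rest on how cold changes varied within a class. Alternatives changed the pseudocount, filter, scaling, control line, block and arrays.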

Additional observations from a re-analysis of the deposited data

Results flagged for a closer look

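Each tested member's 6 ambient signals, 6 cold signals and 6 within-line cold changes were checked for a value set apart from the other 5 lines, in 33 checks. Chance alone sets apart about 1 in 20 such groups, and 3 were found. The cold signal of CYP71B29 in fad2, 9.1, was the lowest of the 6 and stood apart, with a gap of 0.76 of the whole range on the log2 scale. The cold change of CYP71B35 in 35S-FAD3, −0.98, was the lowest of the 6 and stood apart (0.77 of the range), from a signal of 96.5 at ambient temperature to 48.1 in the cold. The cold change of CYP71B6 in Col-aeq, −0.26, was the lowest of the 6 and stood apart (0.707 of the range), on the line whose ambient array also stood apart in its control probe sets.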

How the results depend on the processing

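Of the counts of members called, 242 values under alternatives stayed near the reported one and 16 moved. Most of the 242 were counts of 0 that stayed at 0, which cannot show whether the reported calls hold. For the cold, a count of 5 was still taken as near 7. Most of the 16 moves were in the number of members lower in fad2. For the cold, 7 members were lower as reported, 3 with the filter at the 60th percentile (6 members tested), 4 without the line block, 5 to 7 when a single array was left out, and 6 of 10 tested with the filter on the mean linear signal, the earlier setting. For fad2, 2 members were lower as reported. The number was 1 with no filter, with the 60th percentile, without both Col-aeq arrays and against Col-aeq alone, 0 against Col-0 alone, and 0 to 2 when a single array was left out. For fad3/7/8 it was 0 to 1 higher and 0 to 1 lower when a single array was left out. Among single genes, 428 values kept direction and call, 30 lost the call, 2 gained it and 2 changed sign. Both changes of sign were CYP71B26 in fab1, at 0.13 against Col-0 alone and without both Col-aeq arrays, from −0.21; the cause was not tested. Without the line block CYP71B29, CYP71B26 and CYP71B23 lost their cold calls (adjusted p = 0.0681, 0.0557 and 0.054, limma). CYP71B29 in fad2 lost its call without any single array of fab1 (0.0538 and 0.0535) or 35S-FAD3 (0.0587 and 0.0577). Median centring moved the median of all probe sets in fad2 by −0.10. The linear-mean filter and the values of members with the filter lifted were chosen after seeing the data. No paired analysis was possible by replicate number because every array is labelled replicate 1; the ambient and cold arrays of a line were instead paired through the line term. The 1 array per condition limits precision, and signals near the filter level limit the low members.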

Other observations

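A pair of P450 genes outside the symbol rule also had a named probe set. CYP71B30P, a pseudogene between CYP71B5 and CYP71B31, had signals of 0.2 to 1.8 over the 12 arrays, and CYP718 had signals of 1.3 to 4.8.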
